A study of Mus musculus with 29 samples.

Results

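Neurotransmitter-gated ion channels were examined in TRAP-RNAseq libraries of mouse brain, as 30 subunit genes of the ionotropic glutamate, GABA-A and glycine receptors. The members were the rows of the count table whose gene symbol is on a list of subunits, and 30 of 30 symbols were present among 36172 gene rows. They comprise 4 AMPA, 6 NMDA, 5 kainate, 1 delta, 10 GABA-A and 4 glycine receptor subunits. Ionotropic receptors are assemblies of subunits around an ion pore that opens when a transmitter binds. Glutamate receptors of the AMPA, NMDA and kainate classes carry fast and slow excitatory currents, and GABA-A and glycine receptors carry chloride currents that are mostly inhibitory. Neurons hold the bulk of these receptors, and astrocytes are known to express some AMPA, NMDA and GABA-A subunits.

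The mice carried the NuTRAP reporter, which after recombination labels ribosomes with EGFP-tagged L10a protein, together with a tamoxifen-dependent Cre. In Aldh1l1-NuTRAP mice (Aldh1l1-cre/ERT2) the Cre is driven from an astrocyte gene, and in Cx3cr1-NuTRAP mice (Cx3cr1-cre/ERT2) from a gene of microglia that other macrophages also use. All mice were about 3 months old and had received tamoxifen at 100 mg/kg on 5 days. Tagged ribosomes were pulled from brain homogenate with an antibody to GFP, giving a bead-bound positive fraction and an unbound negative fraction, and in the Cx3cr1 line also the homogenate before the pulldown (input). The Aldh1l1 line had 3 mice (290, 293 and 294), each with a negative and a positive library. The Cx3cr1 line had 6 mice (155, 192, 194, 209, 210 and 277), each with an input, a negative and a positive library, and whole tissue of all but mouse 155 was sequenced, giving 5 further libraries. Every group carries the same reporter and Cre as the others of its line, and the negative fraction still holds RNA of every cell type. The negative fraction of the Aldh1l1 line was its only comparator here.

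Total counts per library ranged from 4260795, in whole tissue of mouse 210, to 26857890. Levels are given as CPM (the share of a library's total count, scaled up to the usual common total), and changes as log2 fold changes after TMM scaling. In the Aldh1l1 line the TMM factors were 0.867 to 0.903 in positive and 1.10 to 1.14 in negative fractions, so that fitted changes are higher than ratios of CPM. Tests are edgeR quasi-likelihood tests over all genes that exceeded 20 counts throughout one of the groups compared, with Benjamini-Hochberg adjusted p under 0.05 as the threshold. The labelled cell types were checked on marker genes. All 8 astrocyte markers were higher in the Aldh1l1 positive fraction, by 2.5 to 3.62 on the log2 scale, and all 8 microglia markers were higher in the Cx3cr1 positive fraction than in input, by 3.14 to 4.01. All 10 neuron markers were lower in the Aldh1l1 positive fraction, by −1.81 to −1.18 on the log2 scale, whereas in the Cx3cr1 positive fraction they lay between −0.52 and 0.20 of input and 3 of 10 were lower. Choroid plexus markers were also higher in the Aldh1l1 positive fraction (5 of 5), with summed levels of 486 to 637 CPM in negative and 2909 to 3370 CPM in positive fractions. Markers of microglia (8 of 8, median log2 −2.35), oligodendrocytes (7 of 8, −2.65), their precursors (3 of 5, −1.47) and cerebellar granule neurons (3 of 4, −1.95) were lower, and 0 of 6 endothelial markers passed in either direction (−0.17). Of 3 ependymal markers tested 2 were higher, with summed levels of 21.2 to 36.2 and 47.7 to 60.0 CPM, and of 4 pericyte and smooth muscle markers 1 was higher and 1 lower. The part of RNA from these other cell types in the results below was not tested. In bulk fractions, fewer cells of a type and less RNA per cell cannot be told apart.

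Some libraries stood apart. Among the 6 Cx3cr1 positive libraries, the first principal component held 75.4% of the variance and separated mice 155, 192 and 194 from mice 209, 210 and 277. Of the 30 members, 5 were higher and 12 lower in all of the former than in any of the latter. Among 13409 genes over 20 counts in all these libraries the shares were 21.9% higher and 26.4% lower. The Cx3cr1 negative library of mouse 155 was the lowest or highest of its group by a wide gap for several members. Values of either set of mice alone are given below for several members.

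The members were first ordered by their level per kb of merged exons in the Cx3cr1 input, the homogenate before the pulldown. Gria1 led with 85.3 CPM per kb, followed by Glrb at 58.7, Grin1 at 56.7 and Gabrb2 at 55.1 CPM per kb. Glra3 at 0.305 and Gabrg3 at 0.24 CPM per kb were lowest. Division by coding length in place of exon length placed Gabrb2 (228 CPM per kb), Gria2 (226 CPM per kb) and Grin1 (187 CPM per kb) above Gria1 (182 CPM per kb), so the order among abundant subunits depends on the length used.

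In the Aldh1l1 line the question was which subunits are kept in the astrocyte-tagged ribosome fraction. A small group of receptor subunits was higher in the positive than in the negative fraction, and a larger group was lower. Of 28 members tested, 5 were higher, beside 26.8% of all 13319 genes tested, and 14 were lower, beside 24.8% of all genes. The median log2 fold change of the members tested was −1.18, against 0.04 over all genes. The CPM values of both groups did not overlap for 4 of all 30 members that were higher, beside 21.4% of all genes tested, and 21 that were lower, beside 41.6%, with the untested Glra3 among the 21. The members that rose were Gria1, Grin2c, Grin3a, Gabrb1 and Gabrg1. Gabrg3 and Glra3 had too few counts to be tested, and Grin2a and Glra1 passed the count filter only through the negative fraction. The plot of fold changes by member shows both lines side by side.

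**Figure D1:**
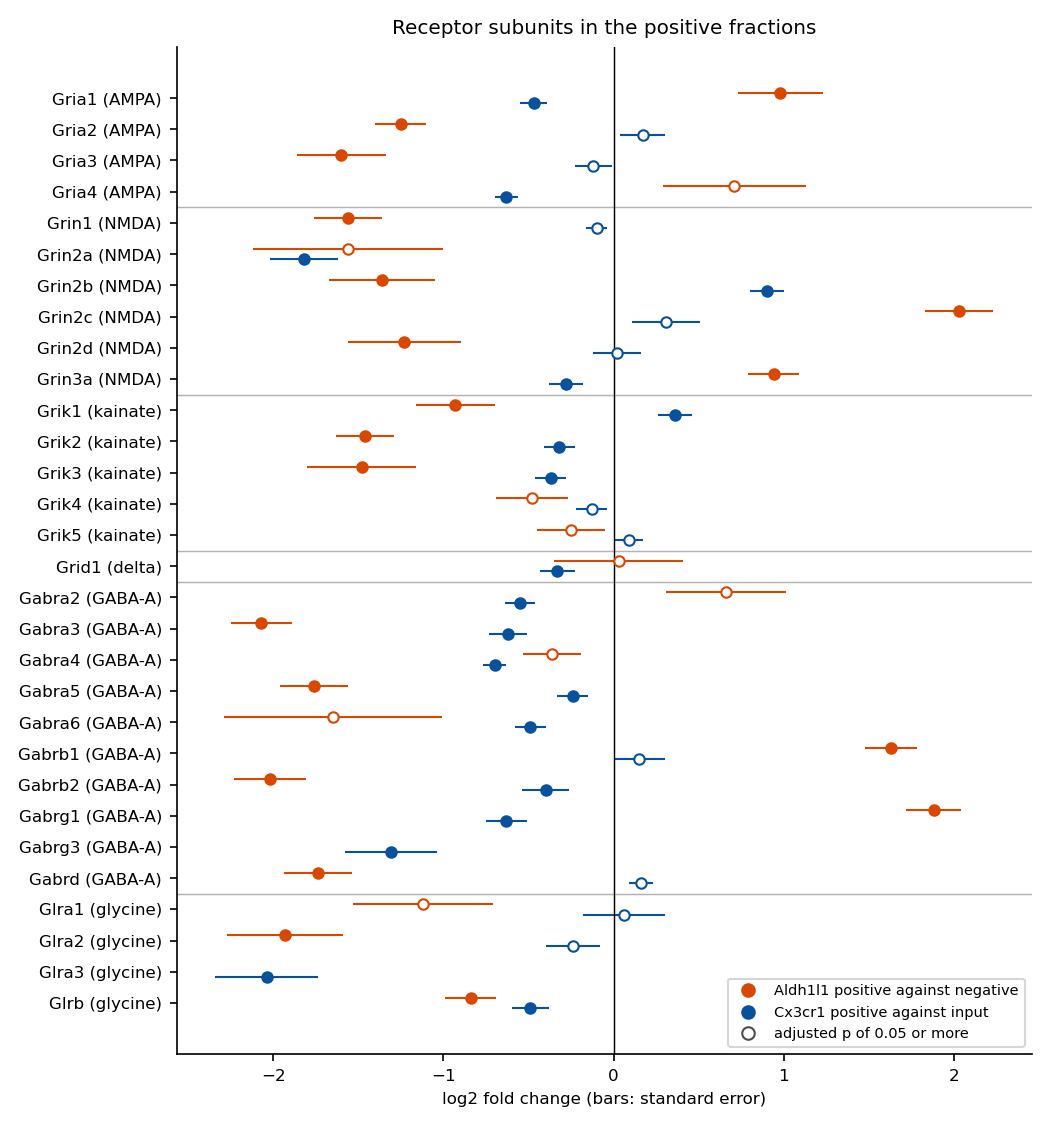
Log2 fold change of each subunit in the Aldh1l1 positive against negative fraction (orange, 3 mice) and the Cx3cr1 positive fraction against input (blue, 6 mice), with the standard error as bars and open symbols where adjusted p was 0.05 or more. The Aldh1l1 values spread from −2.07 to 2.03, and the Cx3cr1 values from −2.04 to 0.90.

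Grin2c (GluN2C, a glutamate-binding NMDA subunit, chr11:115249169-115267243, minus strand, mm10) had the largest rise among the members. Its levels were 100.1, 91.2 and 139 CPM in the negative fractions of mice 290, 293 and 294 and 319, 399 and 346 CPM in their positive fractions. The groups did not overlap. It was 4.08-fold higher (log2 2.03, SE 0.20, adjusted p = 0.000245). Gabrg1 (the gamma1 GABA-A subunit, chr5:70751047-70842617) was 38.7, 31.3 and 30.6 CPM in negative and 91.5, 98.5 and 102 CPM in positive fractions, and the groups did not overlap. It was 3.68-fold higher (log2 1.88, SE 0.16, adjusted p = 0.000133). Gabrb1 (the beta1 GABA-A subunit, chr5:71700016-72137244) was 21.5, 19.0 and 20.2 CPM in negative and 50.6, 50.4 and 46.8 CPM in positive fractions, a tight rise in all 3 mice. It was 3.10-fold higher (log2 1.63, SE 0.15, adjusted p = 0.000168).

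Grin3a (GluN3A, a glycine-binding NMDA subunit, chr4:49661611-49845769) rose less. Its levels were 40.3, 53.0 and 49.6 CPM in negative and 64.9, 75.8 and 75.3 CPM in positive fractions, without overlap. It was 1.92-fold higher (log2 0.94, SE 0.15, adjusted p = 0.00196). Gria1 (GluA1, an AMPA pore subunit, chr11:57011618-57330244) was 388, 453 and 469 CPM in negative and 465, 629 and 940 CPM in positive fractions. The positive library of mouse 290 lay just under the negative library of mouse 294, so the groups overlapped, although the ratio within the mouse was above 1 in 3 of 3 mice. It was 1.97-fold higher (log2 0.98, SE 0.25, adjusted p = 0.0130), and the call was lost without scaling other than the library total (log2 0.63, adjusted p = 0.0700), without mouse 293 (adjusted p = 0.0781) and without mouse 294 (adjusted p = 0.0896).

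Gria4 and Gabra2 did not pass the test, but passed with the mouse as a block and in a fit of all 6 groups. Gria4 (GluA4, an AMPA subunit) was 97.4, 130 and 178 CPM in negative and 105, 116 and 303 CPM in positive fractions, so that mouse 294 held the high value in each. Its log2 fold change was 0.71 (adjusted p = 0.194), and 0.59 with the block (adjusted p = 0.00606). Gabra2 (the alpha2 GABA-A subunit) was 44.4, 65.3 and 72.5 CPM in negative and 38.5, 86.1 and 103 CPM in positive fractions, and its log2 fold change was 0.66 (adjusted p = 0.149), or 0.60 with the block (adjusted p = 0.00309). With the block the counts became 7 higher and 19 lower of 28, and the shares of all genes rose as well, to 37.0% and 33.8%.

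The members that fell span all classes but delta. Among AMPA subunits Gria2 (GluA2, the subunit that limits calcium entry) and Gria3 fell by 1.25 and 1.60 on the log2 scale, while Gria1 rose. Among NMDA subunits Grin1, the obligatory glycine-binding subunit, fell from 467, 580 and 597 CPM to 110, 168 and 160 CPM, without overlap (log2 −1.56, SE 0.20, adjusted p = 0.000608). Grin2b fell by 1.36 and Grin2d by 1.23 on the log2 scale, and Grin2a was at −1.56 (adjusted p = 0.0502, or 0.000870 with the block). All 5 kainate subunits had negative log2 values and 3 passed the test, namely Grik1 (−0.93), Grik2 (−1.46) and Grik3 (−1.48), with Grik4 (−0.48, adjusted p = 0.0853) passing in 6 alternatives, the block among them (adjusted p = 0.0214). Grik5, the kainate subunit with the highest level, was 398, 304 and 264 CPM in negative and 225, 219.9 and 194 CPM in positive fractions (log2 −0.25, adjusted p = 0.322). The delta subunit Grid1, a synaptic organizer, was 30.7, 55.8 and 68.5 CPM in negative and 22.8, 57.7 and 43.7 CPM in positive fractions, which overlapped (log2 0.03, adjusted p = 0.960).

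Of the GABA-A subunits, Gabra3, Gabra5, Gabrb2 and Gabrd fell. Gabrb2, the beta subunit with the highest level per length, was 236, 333 and 380 CPM in negative and 53.0, 61.1 and 69.8 CPM in positive fractions, without overlap (log2 −2.02, SE 0.21, adjusted p = 0.000272). Gabrd, the delta subunit of extrasynaptic receptors, was at −1.74 and Gabra3 at −2.07 on the log2 scale. Among glycine receptor subunits Glra2 fell by 1.93, and Glrb, the beta subunit that binds the scaffold gephyrin, went from 206, 253 and 270 CPM to 104, 108 and 108 CPM (log2 −0.84, SE 0.15, adjusted p = 0.00291). Glrb lost its call without mouse 293 or 294, as did Grik1 and Grin2b, with adjusted p from 0.0521 to 0.149, and Grin2d lost it without mouse 294 (adjusted p = 0.0765).

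GABA-A subunit genes lie in chromosomal clusters, a feature that the choice of members did not use. Gabrg1, Gabra2, Gabra4 (chr5:71569734-71658308) and Gabrb1 lie next to each other on chromosome 5, and had log2 fold changes of 1.88, 0.66, −0.36 and 1.63 in the Aldh1l1 line, in which Gabra2 and Gabra4 did not pass without the block but did with it (adjusted p = 0.00309 and 0.0150). The GABA-A subunits elsewhere were all at −1.65 or lower where tested, namely Gabra6 (−1.65, adjusted p = 0.0655, or 1.1e-06 with the block) and Gabrb2 on chromosome 11, Gabra5 on chromosome 7, Gabra3 on the X chromosome and Gabrd. This is a description of 9 genes with no test.

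**Figure D2:**
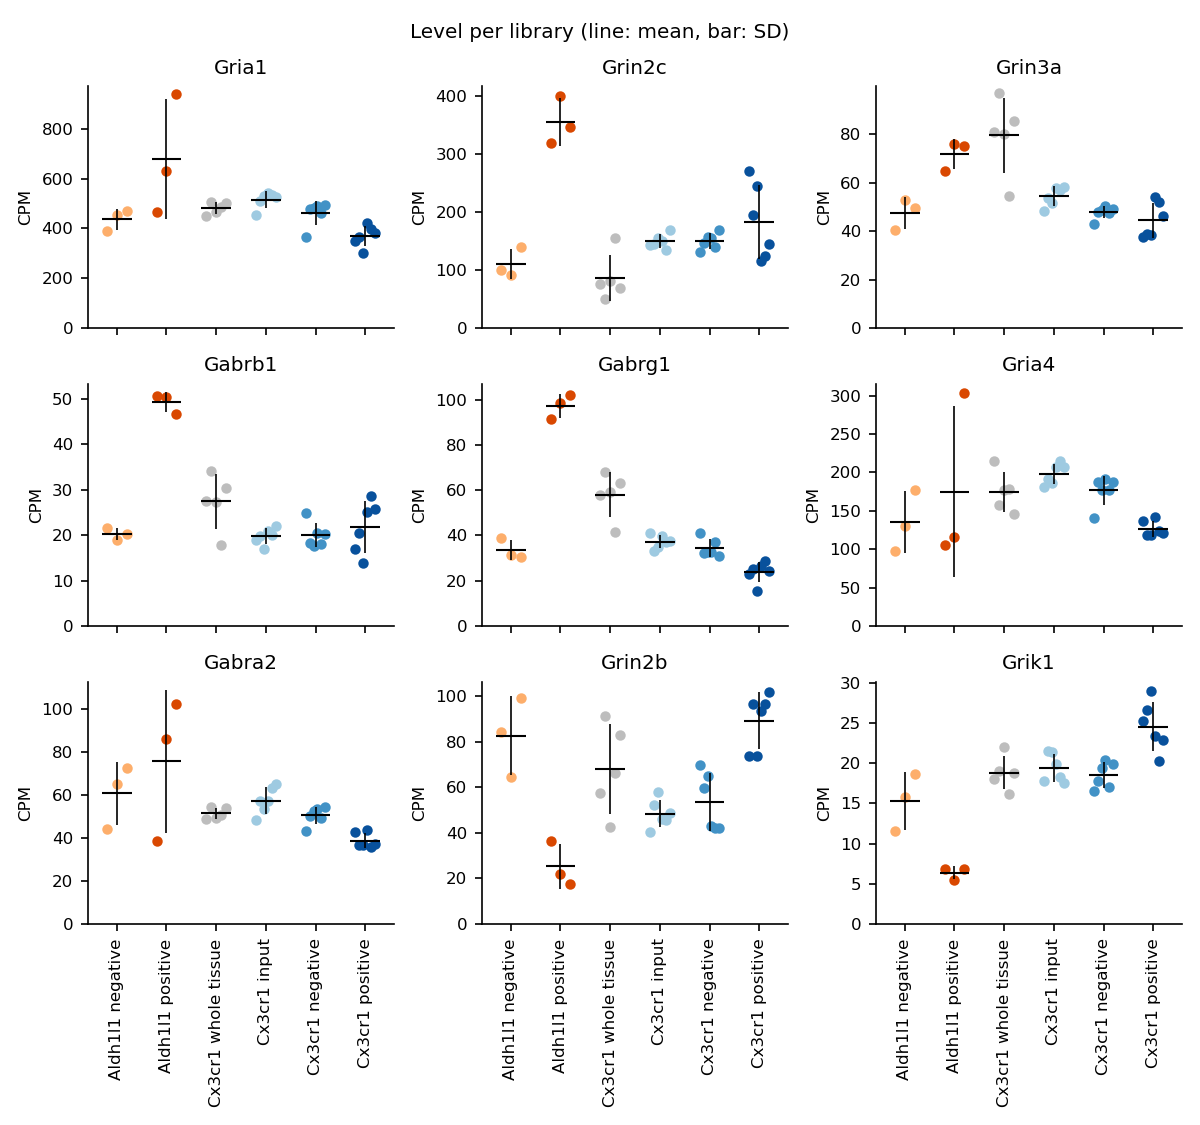
Level in CPM in each library for 9 subunits, in the 6 groups (points: libraries, line: mean, bar: SD). Grin2c, Gabrg1 and Gabrb1 were highest in the Aldh1l1 positive fraction without overlap with any other group, Grin2b was higher in all Cx3cr1 positive than in all Cx3cr1 input libraries, and Gria4 and Gabra2 were spread widely over the 3 Aldh1l1 positive libraries.

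Upstream sequence is shown for 4 members that differed between fractions in opposite directions, of which Grin2c and Grin1 are both NMDA subunits. RefSeq promoter windows (GRCm38.p6) were found for 21 of 30 members. The 190 bases from position −250 to −61 before the start are printed for Grin2c and Gabrg1, which rose in the Aldh1l1 positive fraction, and for Grin1 and Glrb, which fell. Windows that touch an annotated exon were not printed, which leaves out Gabrb1. The genes are on the minus strand, and the windows span chr11:115267304-115267493, chr5:70842678-70842867, chr2:25319248-25319437 and chr3:80913721-80913910, in that order. Capitals mark matches to the motifs searched on both strands, which were TTGGCA (of NFI factors), ACAAAG and ACAATG (SOX type), GGGCGG (a GC box) and TTCAGCACC (part of the RE1 element).
Grin2c: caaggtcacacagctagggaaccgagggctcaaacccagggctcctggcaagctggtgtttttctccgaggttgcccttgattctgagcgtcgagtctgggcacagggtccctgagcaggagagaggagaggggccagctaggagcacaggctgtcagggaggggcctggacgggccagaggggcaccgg
Gabrg1: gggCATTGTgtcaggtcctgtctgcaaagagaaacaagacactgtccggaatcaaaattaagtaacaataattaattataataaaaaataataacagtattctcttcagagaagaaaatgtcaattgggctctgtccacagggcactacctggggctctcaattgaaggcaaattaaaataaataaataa
Grin1: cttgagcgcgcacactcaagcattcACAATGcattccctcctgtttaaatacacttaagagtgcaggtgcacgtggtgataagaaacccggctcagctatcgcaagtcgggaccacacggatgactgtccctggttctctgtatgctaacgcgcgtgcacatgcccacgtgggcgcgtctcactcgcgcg
Glrb: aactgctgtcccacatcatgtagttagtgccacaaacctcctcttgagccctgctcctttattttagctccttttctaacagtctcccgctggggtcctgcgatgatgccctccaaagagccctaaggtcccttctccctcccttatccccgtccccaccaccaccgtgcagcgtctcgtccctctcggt
ACAATG was in the Gabrg1 window, read on the other strand, and in the Grin1 window, and 8.35% of all 32851 promoter windows of this length hold it. None of the other motifs was in these 4 windows, and they are in 9.76% (TTGGCA), 13.0% (ACAAAG), 22.8% (GGGCGG) and 0.253% (TTCAGCACC) of all windows. The matches are a description of letters and not of binding.

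In the Cx3cr1 line the positive fraction was compared with input. Of 30 members tested, 2 were higher, beside 23.3% of all 13838 genes, and 17 were lower, beside 25.6% of all genes, with a median log2 of −0.30 against 0.00 over all genes. Of the neuron markers 3 of 10 were lower (median log2 −0.16), and of the endothelial markers 2 of 6 were higher and 0 lower (0.17). Markers lower in this comparison were 5 of 8 for astrocytes (median log2 −0.42), 7 of 8 for oligodendrocytes (−0.64) and 3 of 5 for their precursors (−0.73). Also lower were 3 of 4 for pericytes and smooth muscle (−0.71), 2 of 4 for cerebellar granule neurons (−0.43) and 2 of 5 for choroid plexus (−0.44). The part of these cell types in the result was not tested. The members that rose were Grin2b and Grik1. Gabrg3 and Glra3 passed the count filter only through the input. Against the negative fraction, 2 of 28 members were higher, beside 12.8% of all genes, and 7 lower, beside 11.6%, and the members higher were again Grin2b and Grik1. Markers lower there were 5 of 8 for astrocytes (median log2 −0.38), 7 of 8 for oligodendrocytes (−0.70) and 4 of 5 for their precursors (−0.51). Of the granule neuron markers 2 of 4 were lower (−0.38), of the choroid plexus markers 2 of 5 (−0.56) and of the neuron markers 1 of 10 (−0.11). Of the endothelial markers 1 of 6 was higher (0.35). The part of these cell types was not tested. The CPM values did not overlap for 1 member higher and 10 lower against input, beside 10.0% and 15.3% of all genes, and for 1 higher and 4 lower against the negative fraction, beside 7.24% and 5.82%. The 2 comparisons share the positive libraries. Without mouse 192 the count lower than the negative fraction was 4, beside 4.12% of all genes, and with mice 209, 210 and 277 alone it was 12, beside 16.8%. Without mouse 155 it was 10, beside 15.7%, with Gabra6, Grik2 and Grin2a gained.

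Grin2b (GluN2B, an NMDA subunit, chr6:135729805-136173511) was 40.3 CPM at the lowest, 47.3 at the median and 57.8 at the highest of 6 inputs, and 42.0, 51.5 and 69.9 CPM over the negative fractions. In the positive fractions it was 73.6, 95.1 and 102 CPM, above every input and negative library. It was 1.87-fold higher than input (log2 0.90, SE 0.10, adjusted p = 8.21e-06) and at log2 0.76 against the negative fraction (SE 0.14, adjusted p = 0.00161), higher in 6 of 6 mice in each. With mice 155, 192 and 194 alone the latter was 0.36 (adjusted p = 0.0846). Whole tissue, at 42.4, 66.4 and 91.3 CPM, overlapped the positive fractions, and Grin2b did not pass against it (log2 0.41, adjusted p = 0.0575). Input was lower than whole tissue for Grin2b (log2 −0.50, adjusted p = 0.0392), a call lost with the block (adjusted p = 0.0560). The same gene fell in the Aldh1l1 positive fraction, from 84.4, 64.6 and 99.2 CPM to 36.5, 22.1 and 17.5 CPM.

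Grik1 (GluK1, a kainate subunit, chr16:87895897-88290258) showed a smaller rise. It was 17.5, 19.1 and 21.5 CPM (lowest, median, highest) in input, 16.5, 18.6 and 20.4 CPM in negative and 20.2, 24.3 and 29.0 CPM in positive fractions, so the groups overlapped, and it was higher in 6 of 6 mice. It was 1.28-fold higher than input (log2 0.36, SE 0.10, adjusted p = 0.00897) and at 0.44 against the negative fraction (adjusted p = 0.00683), which was 0.24 with mice 209, 210 and 277 alone (adjusted p = 0.0868).

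None of the subunits that rose in the Aldh1l1 line was called higher than input or the negative fraction over all 6 mice. Against whole tissue Grin2c was called higher (log2 1.14, adjusted p = 0.00658), a call lost with the block (adjusted p = 0.0700). Gria1 was 453, 527 and 543 CPM in input and 301, 375 and 419.9 CPM in positive fractions, without overlap (log2 −0.47, SE 0.08, adjusted p = 0.000293). Gabrg1 was 33.1, 37.3 and 41.0 CPM in input and 15.3, 24.7 and 28.5 CPM in positive fractions, also without overlap (log2 −0.63, adjusted p = 0.000552). Grin3a was at −0.28 (adjusted p = 0.0249) and Gabrb1 at 0.15 (adjusted p = 0.406). With mice 209, 210 and 277 alone Gabrb1 was called higher, at 0.36 against input (adjusted p = 0.00336) and 0.46 against the negative fraction (adjusted p = 0.00192), and with mice 155, 192 and 194 alone it was at −0.09 and −0.21 (adjusted p = 0.681 and 0.446). Grin2c was 135, 147 and 169 CPM in input and 116, 169.9 and 269 CPM in positive fractions, with mice 155, 192 and 194 at 195 to 269 CPM and mice 209, 210 and 277 at 116 to 145 CPM in the positive fractions. Its log2 fold change was 0.31 (adjusted p = 0.210) over all mice, 0.72 with the former mice alone (adjusted p = 0.00108) and −0.21 with the latter alone (adjusted p = 0.0769). Gria2 behaved likewise, at 0.17 over all mice (adjusted p = 0.304), 0.48 with the former (adjusted p = 0.00316) and −0.18 with the latter (adjusted p = 0.0171). Gria3 was at −0.12 over all mice (adjusted p = 0.398), 0.16 with the former (adjusted p = 0.293) and −0.40 with the latter (adjusted p = 7.39e-05). Glra2 was at −0.24 over all mice (adjusted p = 0.213), −0.66 with the former (adjusted p = 0.00660) and 0.14 with the latter (adjusted p = 0.390).

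Among the other members the largest falls were in subunits of low level, Glra3 (log2 −2.04, adjusted p = 8.56e-05), Grin2a (−1.82, adjusted p = 6.1e-06) and Gabrg3 (−1.31, adjusted p = 0.00113). Of these, Glra3 and Gabrg3 were tested only because they are high enough in input. All 5 GABA-A alpha subunits were lower than input, from −0.70 (Gabra4) to −0.24 (Gabra5), and Gabrb2 was 298, 353 and 383 CPM in input and 173, 275 and 347 CPM in positive fractions (log2 −0.40, adjusted p = 0.0271). Gabra5 lost its call in 10 alternatives, among them both DESeq2 settings and either count filter (adjusted p from 0.0522 to 0.157). Gabrb2, Grid1 and Grin3a lost theirs without mouse 192 or without mouse 194, and Grik2 without mouse 192 (adjusted p = 0.0614). In the fit of all 6 groups Gabra6 (adjusted p = 0.446), Grik3 (0.0527) and Grid1 (0.127) did not pass. With mice 209, 210 and 277 alone Gabrb2 was at −0.23, Glrb at −0.30 and Grid1 at −0.15, and with mice 155, 192 and 194 alone at −0.58, −0.68 and −0.51, all past the threshold. Glrb fell from 247, 279 and 288 CPM to 134, 192 and 244 CPM, without overlap (log2 −0.49, adjusted p = 0.00296). Grin1 at 504, 560 and 567 CPM in input and 482, 499.7 and 544 CPM in positive fractions (log2 −0.10, adjusted p = 0.202) and Grik5 at 199, 224 and 240.2 CPM and 211, 222 and 274 CPM (log2 0.09, adjusted p = 0.358) overlapped. Grid1 was 51.8, 57.4 and 61.6 CPM in input and 37.2, 44.7 and 53.8 CPM in positive fractions (log2 −0.33, adjusted p = 0.0121).

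**Figure D3:**
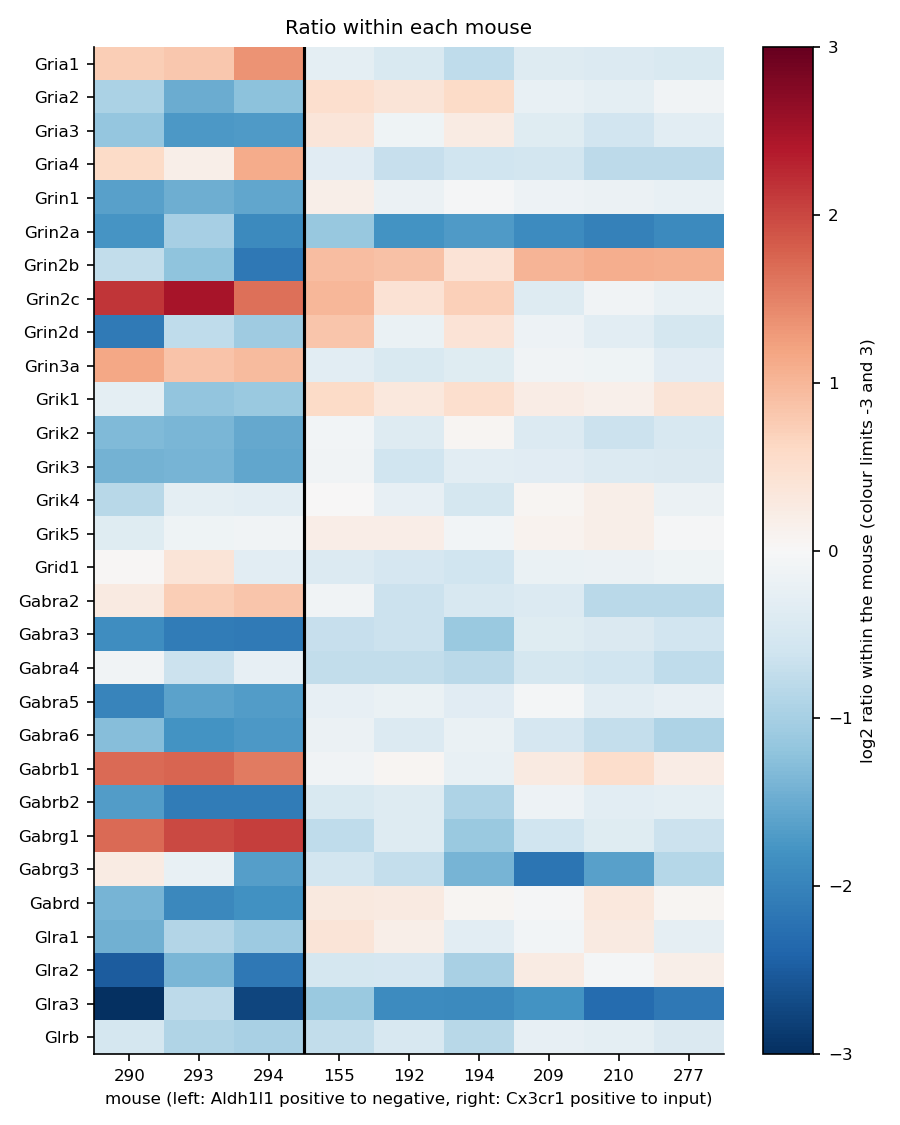
Log2 ratio within each mouse for the 30 subunits, from log2 CPM with TMM factors and a prior count of 2, as positive to negative fraction in 3 Aldh1l1 mice (left) and positive fraction to input in 6 Cx3cr1 mice (right). Grin2c, Gabrb1 and Gabrg1 were positive in all 3 Aldh1l1 mice, Grin2b was positive in all 6 Cx3cr1 mice, and Grin2c changed sign between the Cx3cr1 mice.

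The difference between lines was tested directly, as the positive to negative ratio of the Aldh1l1 line minus that of the Cx3cr1 line. Of 28 members tested, 7 had a higher ratio in the Aldh1l1 line, beside 25.5% of all 13983 genes, and 17 a lower one, beside 29.9%. The 7 were Gria1 (1.23), Gria4 (1.12), Grin2c (1.66), Grin3a (0.98), Gabra2 (0.97), Gabrb1 (1.44) and Gabrg1 (2.36), all as log2 differences. The most negative were Grin2b (−2.16), Gabrd (−1.84) and Gabrb2 (−1.76). Under the 16 alternatives tried the count higher was 7 in each and the count lower was 14 to 19, while the share of all genes lower ran from 18% to 40.9%. Glrb (−0.45) lost its call in 12 of them and Grik4 (−0.51) in 7. The median over the members was −1.35, against −0.11 over all genes. Markers with a lower ratio were 10 of 10 for neurons (median −1.51), 4 of 4 for granule neurons (−1.60) and 8 of 8 for microglia (−5.96). Of 8 oligodendrocyte markers 7 were lower and 1 higher (−2.0). All 8 astrocyte (3.55) and all 5 choroid plexus markers (2.98) had a higher ratio. The part of these cell types in the result was not tested.

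The makeup of each receptor class was then followed as the share of each subunit in the summed CPM per kb of its class. In the AMPA class of the Aldh1l1 line, Gria1 made up 45.8% ± 1.49 (SD, n = 3) in negative and 70.2% ± 3.07 in positive fractions, and Gria2 28.1% ± 3.35 and 9.93% ± 3.85. In the GluN2 group, Grin2c made up 73.3% ± 2.57 and 96.6% ± 0.154. In the beta pair, Gabrb1 made up 2.98% ± 0.899 and 27.2% ± 3.49, against Gabrb2. Division by coding length gave other levels in the same direction. Gria2 was then 47.5% ± 4.50 in negative and 21.5% ± 7.21 in positive fractions, Grin2c 52.1% ± 2.16 and 91.8% ± 1.59, and Gabrb1 6.73% ± 1.94 and 46.6% ± 4.42. The groups did not overlap by exon length, but 3 mice against 3 cannot go below p = 0.1 in the exact permutation test (two-sided), and 0 of 22 shares passed the adjusted threshold.

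In the Cx3cr1 line 11 of 22 shares differed between positive fraction and input by the exact two-sided permutation test, with adjusted p from 0.00680 to 0.0346. Gria2 rose from 22.7% ± 0.678 (SD, n = 6) to 30.5% ± 5.47 of the AMPA class, and Gria4 fell from 17.4% ± 0.607 to 13.7% ± 1.18 (exact permutation p = 0.00216 for each, the smallest it can give). By coding length Gria2 went from 40.6% ± 0.925 to 49.8% ± 5.84 and was the leading AMPA subunit in input, ahead of Gria1 at 32.7% ± 0.760. Grik1 rose from 4.13% ± 0.243 to 5.37% ± 0.582 of the kainate class, and Grin2a fell from 2.59% ± 0.687 to 0.672% ± 0.273 of the GluN2 group. Grin2c stayed at 80.6% ± 1.96 and 80.5% ± 5.05. With the sign flipped within mice as an exact test, 0 of 22 shares passed, but 6 mice cannot go below p = 0.03125 there before adjustment over 22 shares, so that this test could hardly pass any. Without single mice 7 to 12 passed. Shares of one class sum to 100%, so that they are not independent.

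**Figure D4:**
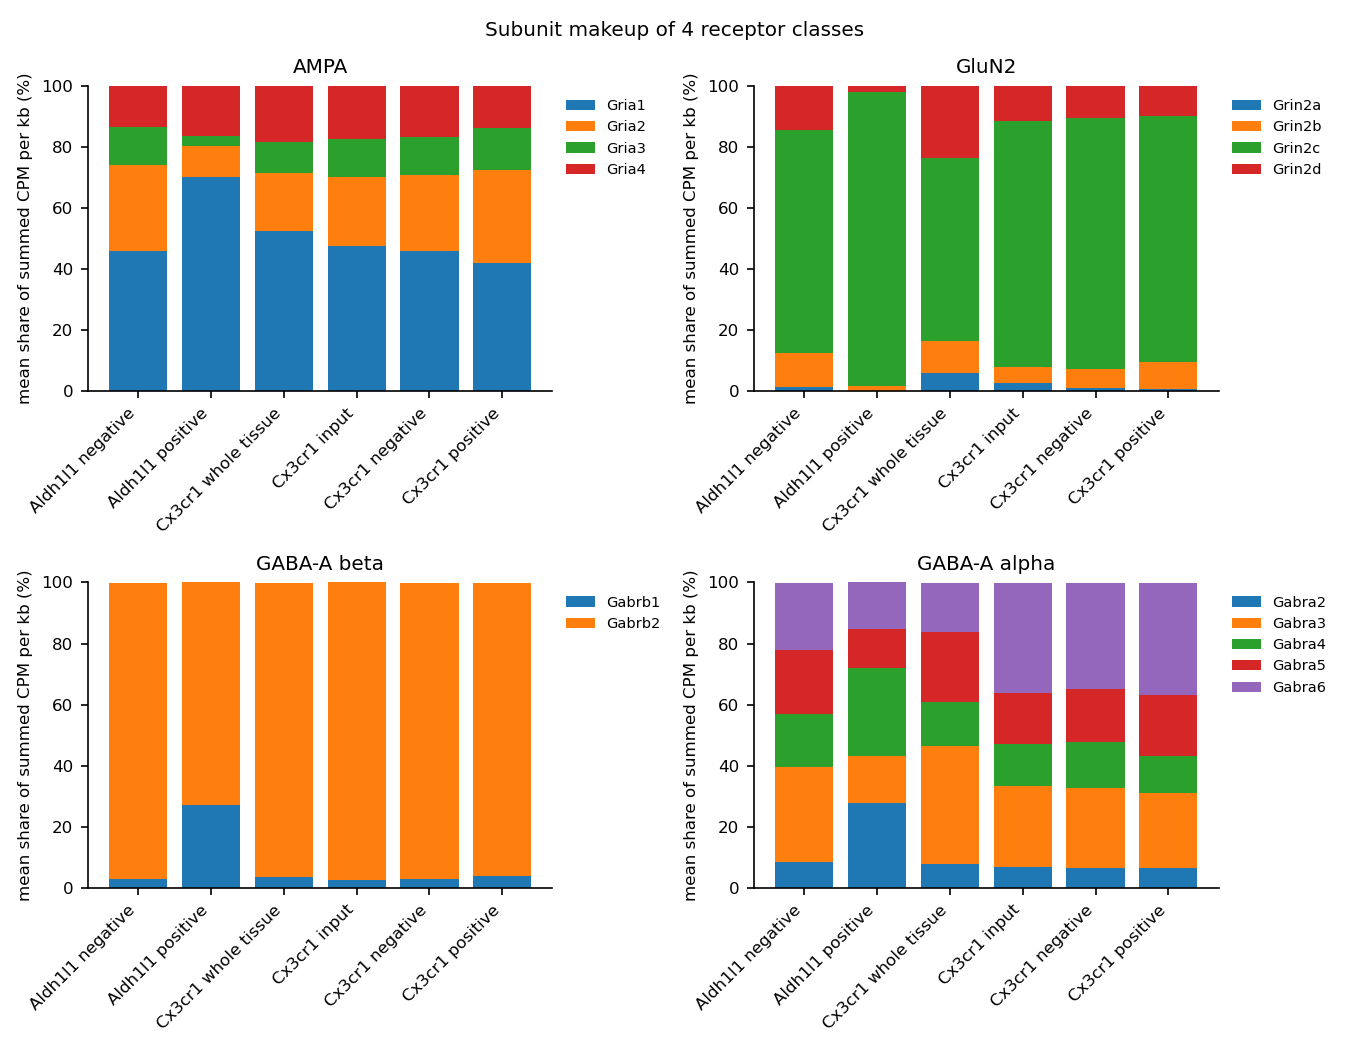
Mean share of each subunit (in % of the summed CPM per kb of merged exons) in 4 receptor classes, by group. In the Aldh1l1 positive fraction Gria1 held 70.2% of the AMPA class and Grin2c 96.6% of the GluN2 group, and Gabrb1 rose to 27.2% of the beta pair.

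Some subunits differed widely between the whole tissue libraries. Gabra6 (the alpha6 GABA-A subunit of cerebellar granule neurons) was 56.6, 0.639, 25.7, 94.6 and 11.5 CPM in whole tissue of mice 192, 194, 209, 210 and 277, and 96.8 to 122 CPM in the 6 inputs. The summed level of 4 cerebellar granule neuron markers was 370.3, 71.2, 229, 649 and 134 CPM in the same tissue libraries and 674 to 775 CPM in the inputs. In the Aldh1l1 line (mice 290, 293 and 294) this sum was 412, 202 and 718 CPM in negative and 75.3, 48.4 and 177 CPM in positive fractions, with Gabra6 at 40.5, 24.0 and 99.2 CPM and 12.0, 5.43 and 23.7 CPM. The part of cerebellar content in these comparisons was not tested. Grin2c, also a cerebellar subunit, was 76.3, 49.2, 80.2, 154 and 68.8 CPM there, and Gabrd 34.2, 28.4, 29.6, 53.3 and 41.0 CPM. All 3 were highest in mouse 210, the library with the fewest counts. Grin3a, Gabrb1 and Gabrg1 were lowest in that library, at 54.4, 17.8 and 41.5 CPM against 80.0 to 96.9, 27.3 to 34.0 and 57.7 to 68.0 CPM in the other 4.

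**Figure D5:**
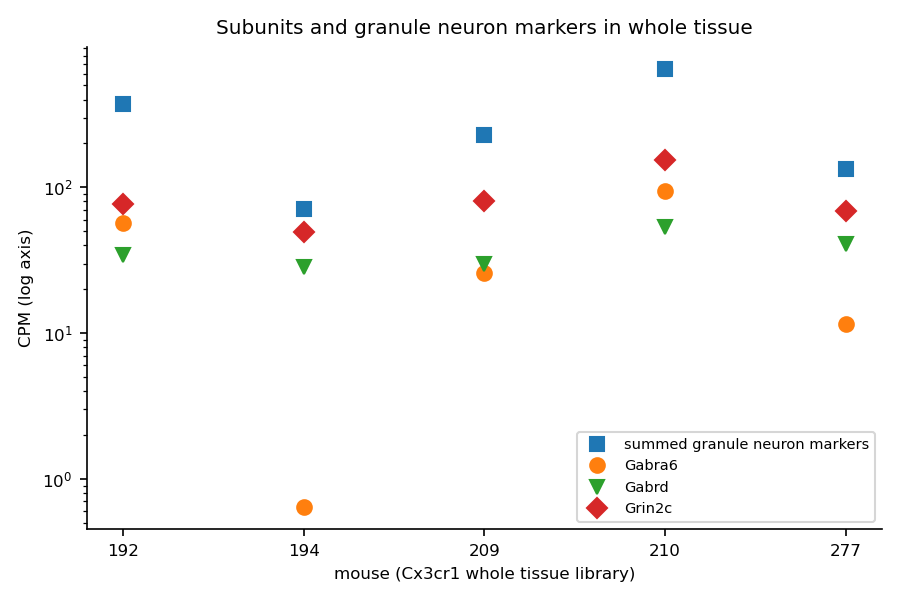
CPM (log axis) of Gabra6, Gabrd, Grin2c and the sum of 4 cerebellar granule neuron markers in the Cx3cr1 whole tissue library of each of 5 mice. Mouse 210 was highest and mouse 194 lowest in each of the 4 measures.

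The input differed from whole tissue by 8 members higher, beside 16.3% of all 13608 genes, and 12 lower, beside 14.2%, of 30 tested. With the block 9 were higher and 8 lower, beside 13.1% and 9.57%. All 6 endothelial (median log2 −1.33) and all 4 pericyte and smooth muscle markers tested (−0.94) and 7 of 8 oligodendrocyte markers (−0.37) were lower in input. Of the neuron markers 5 of 10 were higher and 2 lower (0.22). Cerebellar granule neuron (2 of 4, 1.56) and choroid plexus markers (3 of 5, 0.82) were higher, with 0 lower. The part of these cell types in the result was not tested. Gabrd had the highest log2 value among those that passed (1.13, adjusted p = 7.07e-05), and the glycine receptor subunits fell, with Glra1 at −1.90 (adjusted p = 0.000603), Glra3 at −1.66 and Glra2 at −0.67. Glra1, Glra2 and Glra3 are glycine-binding alpha subunits, and Glra1 is known from brainstem and spinal cord. The positive fraction against whole tissue had 6 higher, beside 27.5%, and 16 lower, beside 24.3%. The 6 were Gria2, Gria3, Grin2c, Grik1, Grik5 and Gabrd. Gabrg3 and Glra3, among the 16, passed the count filter only through whole tissue, where they are high, and Gabra6 passed it only through the positive fraction. Markers lower in the positive fraction than in whole tissue were 8 of 8 for oligodendrocytes (median log2 −1.21), 5 of 6 for endothelium (−1.17), 4 of 4 for pericytes and smooth muscle (−1.38) and 7 of 8 for astrocytes (−0.46), while of the neuron markers 3 of 10 were higher and 2 lower (−0.06). With mice 209, 210 and 277 alone 2 were higher, beside 17.2% of all genes. The CPM values did not overlap for 7 members higher and 4 lower in input against whole tissue, beside 8.37% and 5.61% of all genes. Gabra6, among the 7, passed the count filter there only through the input, where it is high. For the positive fraction against whole tissue these counts were 3 higher and 14 lower, beside 12.7% and 15.8%. With the block Grin2c was no longer called in it (log2 1.01, adjusted p = 0.0700).

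Within the Cx3cr1 line, some subunits had their highest mean in whole tissue and their lowest in the positive fraction. They were the low Glra3, Grin2a and Gabrg3, and also Glrb, Gabra3, Gabrg1, Grin3a, Grid1, Gabra5, Grik4 and Glra2. Glrb, an abundant one, had means of 316 CPM in whole tissue and 193 CPM in positive fractions. Glra3 averaged 8.68 ± 2.39 CPM (SD, n = 5) in whole tissue, 2.81 ± 1.06 in input (n = 6), 0.995 ± 0.453 in negative and 0.674 ± 0.230 in positive fractions. Grin2a averaged 27.0 ± 8.30, 17.2 ± 5.02, 7.21 ± 2.34 and 4.84 ± 0.784 CPM in the same order, and Gabrg3 5.29 ± 1.13, 2.86 ± 0.849, 1.74 ± 0.691 and 1.16 ± 0.436 CPM. Between negative and positive fractions Grin2a did not pass (adjusted p = 0.0799) and Glra3 and Gabrg3 were not tested. The fall of Grin2a between whole tissue and input (log2 −0.69, adjusted p = 0.0413) was lost with the block (adjusted p = 0.129).

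The surrounding receptor machinery was followed on 3 lists. Of 15 auxiliary subunits of AMPA, kainate and GABA-A receptors, 2 rose and 9 fell in the Aldh1l1 line, and 1 rose and 7 fell in the Cx3cr1 positive fraction against input. Over all genes the shares were 26.8% higher and 24.8% lower in the Aldh1l1 line, and 23.3% and 25.6% against input. Of 22 postsynaptic scaffold genes tested, 0 rose and 11 fell in the Aldh1l1 line and 2 rose and 8 fell against input. Of 9 metabotropic glutamate and GABA-B receptors, 2 rose and 6 fell in the Aldh1l1 line, and 0 rose and 7 fell against input. The genes over 2-fold higher in the Aldh1l1 line were Grm3, a metabotropic glutamate receptor (log2 2.11, SE 0.16, adjusted p = 8.93e-05), Gabbr1, a GABA-B subunit (1.20, SE 0.22, adjusted p = 0.00320), and Shisa9, an AMPA auxiliary subunit (1.07, SE 0.22, adjusted p = 0.00544). None was over 2-fold higher in the Cx3cr1 positive fraction against input or the negative fraction.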

How the data were processed

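RNA was measured by TRAP-RNAseq in 29 libraries, grouped by the fraction and mouse in their labels. Per the study's methods, the authors used Strand NGS for trimming and for alignment of strand-specific paired reads to mm10, and per the file headers the gene models were from RefSeq. The deposited raw values were taken for estimated counts per gene without normalization, since 82.4% of the nonzero values were not whole, and were rounded. The deposited log2 values, which the authors made by DESeq normalization, were not used. No column of per-sample values was left without a sample.

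Total counts per library are given with the results, and limit precision to counting error and the spread between mice. After TMM scaling, edgeR 4.0.16 under R 4.3.3 gave two-sided robust quasi-likelihood tests, without a block, on genes that exceeded 20 counts throughout one of the groups compared. Adjusted p-values are Benjamini-Hochberg over all genes tested. DESeq2 1.42.0 and other scalings, filters and left-out mice were alternatives. CPM used library totals, and lengths were merged GENCODE M21 exons, found for 30 of 30 members. Subunit shares were compared by exact permutation, with adjustment over 22 shares (Python 3.11.15, scipy 1.17.1). Scripts were tested on simulated data.

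Libraries of the same mouse are paired by the mouse number in the labels. The correlation of their deviations from the group means across genes was 0.484 to 0.692 in the 3 Aldh1l1 pairs. The fit without a block leaves this pairing out. The correlation was over 0.1 in 3 of 6 Cx3cr1 pairs of positive fraction with input or with negative fraction, and in 0 of 5 pairs with whole tissue. The genes given with a value in every library or group range are those higher in a positive fraction than in its comparator and the highest per length in each class, and list genes are named when over 2-fold higher. Gria4, Gabra2 and the members followed through whole tissue and across fractions were chosen after their values were seen. The members and lists were chosen with earlier results of these data known. Sequences are from RefSeq (GRCm38.p6).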

Additional observations from a re-analysis of the deposited data

Results flagged for a closer look

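Of 115 group and member pairs tested for a library far from the rest, 15 had one, and chance gives about 1 in 20. The Aldh1l1 groups, with 3 libraries each, were too small for this test and were not included. The Cx3cr1 negative library of mouse 155 held 11 of them. It was the lowest of its group for Gria1 (367.3 CPM, others 463.2 to 492.4), Gria3 (152.6, others 195.7 to 219.4), Gria4 (140.2, others 176.6 to 190.8) and Grin1 (413.3, others 525.3 to 559.8). It was also the lowest for Grin2d (16.29 CPM, others 24.66 to 28.83), Grin3a (43.12, others 47.56 to 50.18), Grik2 (50.28, others 59.04 to 62.81), Grik3 (70.12, others 110.5 to 122.6), Grik4 (19.24, others 27.52 to 28.59) and Grid1 (31.59, others 51.76 to 57.07), and the highest for Gria2 (713.8, others 605.0 to 636.6). Among the Cx3cr1 inputs, Grin1 was low in mouse 155 (504.2 CPM, others 547.8 to 566.8), Glra1 low in mouse 194 (4.31, others 7.201 to 8.695), Glra2 low in mouse 277 (13.02, others 17.09 to 18.71) and Gabra6 high in mouse 277 (122.2, others 96.81 to 100.7).

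The positive to negative ratio differed between the lines for 24 of 28 members tested (25.5% of all genes were higher and 29.9% lower), by the interaction test of edgeR, as a log2 difference of the Aldh1l1 minus the Cx3cr1 line. It was higher for Gabrg1 (2.36), Grin2c (1.66), Gabrb1 (1.44), Gria1 (1.23), Gria4 (1.12), Grin3a (0.98) and Gabra2 (0.97). It was lower for Grin2b (−2.16), Gabrd (−1.84), Gabrb2 (−1.76), Gabra3 (−1.70), Gria3 (−1.67), Gabra5 (−1.67), Glra2 (−1.63), Grin1 (−1.60) and Glra1 (−1.56), and for Gria2 (−1.48), Grin2d (−1.44), Gabra6 (−1.44), Grik1 (−1.42), Grik3 (−1.40), Grik2 (−1.30), Grik4 (−0.51) and Glrb (−0.45).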

How the results depend on the processing

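With 3 Aldh1l1 mice, calls near the threshold rest on single mice. Low subunits had few counts, with Glra3 at 0 to 13, Gabrg3 at 6 to 23 and Grin2a at 7 to 52 in the Aldh1l1 positive libraries. Fits with mice 155, 192 and 194 alone or 209, 210 and 277 alone were chosen after seeing the data. Under library totals the median of all genes in the Aldh1l1 line moved from 0.04 to −0.31, with 2436 genes higher and 4824 lower (3569 and 3299 under TMM), and 4 members higher and 20 lower. Causes were not tested. Without single mice, members higher and lower numbered 4 to 6 and 10 to 19 in the Aldh1l1 line, 2 to 3 and 12 to 18 for Cx3cr1 positive against input, 2 and 4 to 10 against negative, 5 to 6 and 14 to 17 against whole tissue, 6 to 10 and 9 to 12 for input against whole tissue, and 7 and 15 to 16 between lines. The shares of all genes moved too, over 14.8% to 34.6% higher and 12.0% to 34.3% lower in the Aldh1l1 line, 18.2% to 23.8% and 18.8% to 25.9% against input, 8.34% to 15.0% and 4.12% to 15.7% against negative, 18.7% to 27.7% and 18.6% to 27.0% against whole tissue, 9.31% to 19.4% and 8.66% to 19.4% for input, and 22.7% to 26.4% and 25.0% to 28.6% between lines. With mice 155, 192 and 194 alone 4 members were higher than input, beside 21.6% of all genes. With mice 209, 210 and 277 alone 12 were lower than the negative fraction and 2 higher than whole tissue. Subunit shares past the threshold in the Cx3cr1 line numbered 7 to 12 without single mice, and 0 with the sign flipped within mice.

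With the mouse as a block, the Aldh1l1 line had 7 higher and 19 lower. Those gained were Gabra2 (0.60, adjusted p = 0.00309), Gria4 (0.59, 0.00606), Gabra4 (−0.37, 0.0150), Grik4 (−0.49, 0.0214), Gabra6 (−1.65, 1.1e-06), Glra1 (−1.15, 0.00698) and Grin2a (−1.58, 0.000870), the last pair having passed the count filter only through the negative fraction. In the Cx3cr1 line, lost calls were Gria1 for positive against negative fraction (adjusted p = 0.0554), Gabra5 (0.0877) and Grin2c (0.0700) against whole tissue, and Glrb (0.0734), Grin2b (0.0560), Grid1 (0.0516) and Grin2a (0.129) for input against whole tissue, where Grik3 was gained (0.0479). Between lines Grin2a was gained (−1.14, 0.0158). The block changed no other call of a member.

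No member whose direction turned had passed the test over all mice, but with mice 209, 210 and 277 alone turned values passed for Gria2 (adjusted p = 0.0171) and Grin2d (0.0124) against input and for Gria3 (0.0199) and Grin2c (0.0489) against the negative fraction. In the Aldh1l1 line Grid1 was −0.011 with DESeq2 size factors and with the DESeq2 Wald test, −0.323 with library totals, −0.079 with at least 100 counts, −0.016 with all 6 groups and −0.258 to 0.229 without single mice. Between lines, library totals gave Grid1 −0.185 and Gabra4 −0.07, and Grid1 was −0.171 to 0.315 without single mice. With mice 209, 210 and 277 alone, values against input were Gria2 −0.181, Grin2c −0.214, Grin2d −0.307, Grik4 0.046 and Glra2 0.143, against the negative fraction Gria2 −0.072, Gria3 −0.243, Grin2c −0.235, Grin2d −0.189, Grin3a 0.082, Grik4 0.012 and Glra2 0.023, and against whole tissue Grik2 −0.082 and Gabrb1 0.045. With mice 155, 192 and 194 alone, Gria3 was 0.16 and Gabrb1 −0.086 against input, and Grin1 0.103, Grik5 0.009 and Gabrb1 −0.212 against the negative fraction. With the block Grin2d was 0.0 against input and Gabra5 0.007 for input against whole tissue. Against the negative fraction, Gria3 was −0.01 with library totals, Grin1 0.001 with DESeq2 size factors and Wald test, 0.018 with at least 100 counts and 0.016 with all 6 groups, and Grik4 0.01 and 0.009 with the latter settings. Grik1 for input against whole tissue was −0.003 with all 6 groups. Without single mice, Grin2d was −0.151 to 0.121 and Glra1 −0.016 to 0.139 against input, Gria3 −0.106 to 0.079, Grin1 −0.091 to 0.03, Grin2d −0.041 to 0.273 and Grik4 −0.066 to 0.031 against the negative fraction, and Grik1 −0.051 to 0.064 and Gabra5 −0.091 to 0.005 for input against whole tissue. Share differences in percentage points were Grik4 0.3659 with coding length, 0.2829 without length and −0.4193 to 0.3018 without single mice (Aldh1l1), and Gabra6 −0.9969 to 1.93, Grin2c −0.9323 to 1.107 and Gabra2 −0.4818 to 0.01056 without single mice (Cx3cr1).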
